A study of Mus musculus with 27 samples.

Results

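The core circadian clock genes followed here were 10 genes named by symbol, namely Arntl, Clock, Npas2, Per1, Per2, Per3, Cry1, Cry2, Nr1d1 and Nr1d2, of 18820 genes that the liver arrays carried under a single symbol. A gene was read from the transcript cluster, a set of probes summarised as 1 value, that was listed under that symbol alone, and from the one with the highest mean where there were several. This gave 9 of the 10 members. Nr1d1 had no cluster of its own, since both clusters that carry its symbol are also listed under Thra, and it is described from those clusters with that limit. The 9 members all passed the filter on low values, which asked for an interquartile range over 0.1 and for 5 or more arrays brighter than 20, and Npas2 was the only one not above 20 on all 27 arrays (24 of 27).

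The livers came from 27 male C57BL/6J mice aged 28 months, 1 array per mouse. Of these, 7 had been on 30% calorie restriction and were moved in steps from 24 months to ad libitum medium-fat food (CR-MF). Another 5 had stayed on 30% calorie restriction (CR). Since the start of the diets, 7 had been on medium-fat food with 25% of its energy as fat (MF) and 8 on control food (C). The diets began at young age, after a shared standard diet on arrival. CR mice got 70% of the mean energy intake of the control mice, as 1 portion a day at 15.30, while CR-MF, MF and C mice ate at will. Single mice are called by their label codes, which begin with BC4 in CR-MF, B4 in CR, C4 in MF and A4 in C. Every mouse was fasted for 4 h, given carboxymethyl cellulose by gavage and fasted for another 6 h, and CR mice were given part of a portion 15 min before the first fast. By the study's methods the mice died in the afternoon, over a span of hours that includes the usual time of the CR portion. By its light schedule, the lights went off within that span, soon after the time of the portion. The clock time of death of each mouse is not given in the sources used here, so the restricted diet, the fixed meal time and the last meal cannot be told apart for the CR group, and CR was the only group fed in portions.

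The circadian clock of a cell is a loop of transcription that repeats about once a day. ARNTL (also called BMAL1) pairs with CLOCK or its relative NPAS2 and switches on the Per and Cry genes through short DNA motifs called E-boxes, and the PER and CRY proteins then hold that pair back. In a second loop, the receptors NR1D1 and NR1D2 (REV-ERB) repress Arntl through a motif called the RRE, and the ROR receptors activate it at the same motif. In liver, RNA of Arntl and RNA of the Per and Nr1d genes peak at nearly opposite times of day, and the time of feeding is known to set the phase of the liver clock. A liver taken once gives a single point of this cycle, so a level cannot be split into phase and amplitude.

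Motifs of the loop were looked up in the RefSeq promoter windows of GRCm38.p6, from 250 bases before to 50 bases after each start, on both strands. The table held 13 windows of 9 members, and Per2 was not matched. The E-box CACGTG was in 7.15% of all 32851 windows (8.09% of all genes) and in windows of 2 of the 9 members, Cry1 and Per1. Its variant CACGTT was in 4.68% of all windows (5.44% of genes) and in windows of 3 members (Cry1, Cry2 and Nr1d1). The D-box was searched as TTATGTAA or TTACGTAA. It was in 1.06% of all windows (1.23% of genes) and in the window of 1 member, Per3, which held it at 2 places. The RRE core, searched as TAGGTCA or TGGGTCA, was in 6.45% of all windows (7.35% of genes) and in 1 member, Arntl. No match overlapped another, and the windows of Clock, Npas2 and Nr1d2 held none of these letters. The stretches below are shown because they hold the kinds of motif through which the loop is known to act, in members whose levels are described next. Each is written 5′ to 3′ along the gene with the motif in capitals (AACGTG is CACGTT read on the other strand).
Cry1: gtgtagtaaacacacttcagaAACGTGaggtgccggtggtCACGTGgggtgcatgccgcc
Per1: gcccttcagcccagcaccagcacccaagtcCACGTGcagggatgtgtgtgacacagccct
Per3: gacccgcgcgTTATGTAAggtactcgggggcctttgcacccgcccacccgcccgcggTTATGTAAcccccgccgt
Cry2: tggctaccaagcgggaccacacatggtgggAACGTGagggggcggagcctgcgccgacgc
Arntl: cagaaagTAGGTCAgggacggaggtgc
The Cry1 stretch is chr10:85185095-85185154 (minus strand), the Per1 stretch chr11:69098753-69098812 (plus strand), the Per3 stretch chr4:151044806-151044880 (minus strand) and the Cry2 stretch chr2:92434206-92434265 (minus strand), and all 4 lie before an annotated start. The Arntl stretch is chr7:113207534-113207560 (plus strand), which lies in the transcribed part, 24 to 50 bases after the second annotated start. A match is a description of letters, and none of these data measured binding.

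Of the 9 measured members, Cry1 alone differed between diets past the adjusted test. Cry1, which encodes a repressor of ARNTL and CLOCK, was higher in CR than in C livers and than in the mean of the other 3 diets, and it was the only member to pass an adjusted p under 0.05 in any of the 7 comparisons made. In CR minus C, 1 of 9 members was called, where 1.57% of the 13993 genes tested were called, and 3 members had an unadjusted p under 0.05 (19.8% of all genes). In CR minus the mean of CR-MF, MF and C, 1 of 9 members was called, with 3.48% of all genes, and 5 members had an unadjusted p under 0.05 (21.3% of all genes). No member was called in CR-MF minus CR (0.6% of all genes), CR-MF minus MF (1.44%), CR-MF minus C (0.3%), CR minus MF (5.42%) or MF minus C (0%), nor in the moderated F test over the 4 diets (3.62%). At an unadjusted p under 0.05 these comparisons held 3, 1, 1, 6, 0 and 4 of the 9 members, against 12.3%, 14.8%, 11.4%, 23.7%, 3.97% and 20.8% of all genes. The test was the moderated test of limma with Benjamini-Hochberg adjustment over all genes tested, and the intensity-based moderated test (IBMT) gave the same counts of members in the 7 comparisons.

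**Figure D1:**
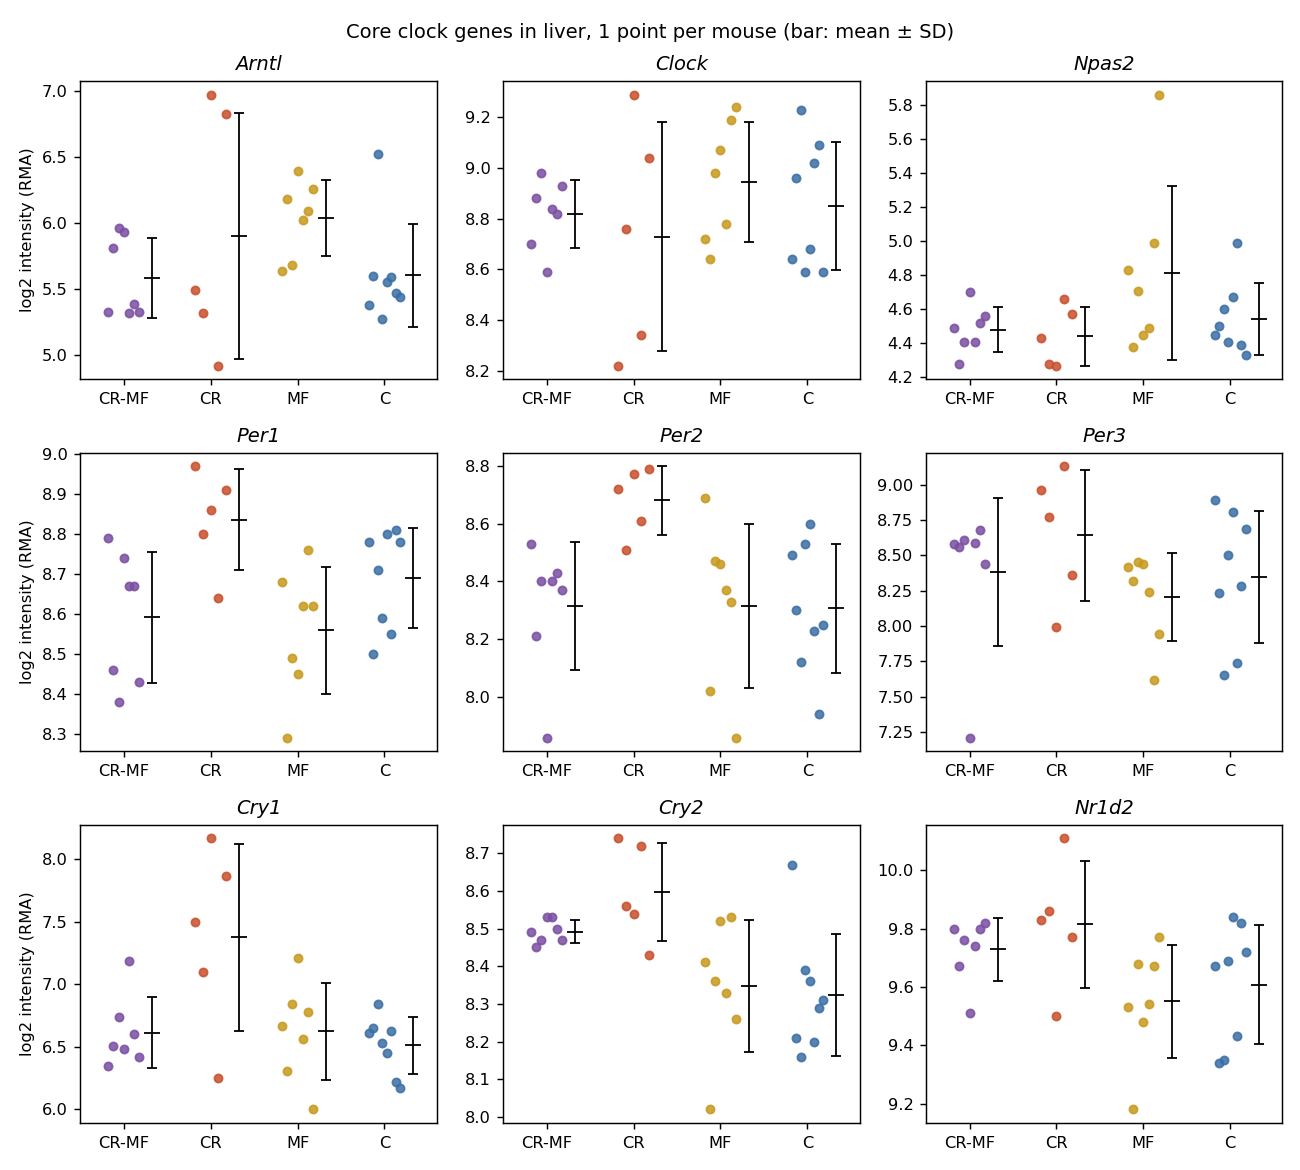
Levels of the 9 measured members by diet, as log2 intensity on the vertical axes (each gene has its own scale), with 1 point per mouse and the mean ± SD beside each group (CR-MF n = 7, CR n = 5, MF n = 7, C n = 8). In Cry1, 4 of 5 CR mice lie above all C mice, while in Arntl the CR mice spread from 4.92 to 6.97.

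Cry1 (transcript cluster 10371400) had log2 levels of 6.25, 7.10, 7.50, 7.87 and 8.17 in the CR mice. It spanned 6.35 to 7.19 in the CR-MF mice (median 6.51), 6.00 to 7.21 in the MF mice (median 6.67) and 6.17 to 6.84 in the C mice (median 6.57). So 4 of 5 CR mice stood above every C mouse and 3 of 5 above every MF mouse, while the fifth, B4_5, lay low among the other diets. The mean was 7.38 ± 0.75 in CR and 6.51 ± 0.23 in C livers (SD, n = 5 and 8), a log2 difference of 0.86 (SE 0.22, adjusted p = 0.0466), or 1.82-fold. Against the mean of CR-MF, MF and C it was 0.79 (SE 0.19, adjusted p = 0.0262).

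Against MF alone, the Cry1 difference of CR was 0.75 (SE 0.23, adjusted p = 0.0526), and CR-MF minus CR was -0.76 (SE 0.23, adjusted p = 0.13), so neither passed. In CR-MF, Cry1 averaged 6.61 ± 0.28, against 6.63 ± 0.39 in MF (SD, n = 7 each), with an interval of the log2 difference of -0.44 to 0.42. These comparisons share the CR mice or the MF mice and are not separate pieces of evidence. Livers are mixtures, and fewer cells of a type and less RNA per cell cannot be told apart in such samples.

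The Cry1 result rested on few mice. Without the CR mouse B4_3, which had the highest Cry1 of all 27 mice, CR minus the mean of the other diets was 0.60 (adjusted p = 0.131). Without B4_7 it was 0.67 (adjusted p = 0.0883), without B4_1 it was 0.76 (adjusted p = 0.0817), and without the low mouse B4_5 it was 1.07 (adjusted p = 0.000664). The call held without each of the other 23 mice. The difference from C lay closer to the threshold: it was called in 9 of 27 fits that left out 1 mouse each (adjusted p of 0.00242 to 0.151), and was 0.67 without B4_3 and 1.15 without B4_5. The 18 mice without which this call was lost were 4 CR mice (B4_1, B4_3, B4_7 and B4_13, adjusted p of 0.0601 to 0.151), 4 CR-MF mice (BC4_1, BC4_5, BC4_9 and BC4_13, 0.0511 to 0.0543), 3 MF mice (C4_1, C4_7 and C4_13, 0.0508 to 0.0539) and all C mice but A4_1 (0.0506 to 0.0814). Arrays carried the code of 1 of 3 plates, and CR minus C was 0.65 on plate G150 (3 CR and 6 C mice), 0.93 on G151 and 1.56 on G152, each of the last pair with 1 mouse a diet. On G151, CR minus MF was -0.11 and CR-MF minus CR was 0.09 for Cry1, opposite in sign to the differences over all mice. A fit on G150 alone gave an adjusted p of 0.204, and a fit with the plate as a block gave 0.83 with an adjusted p of 0.0587.

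**Figure D2:**
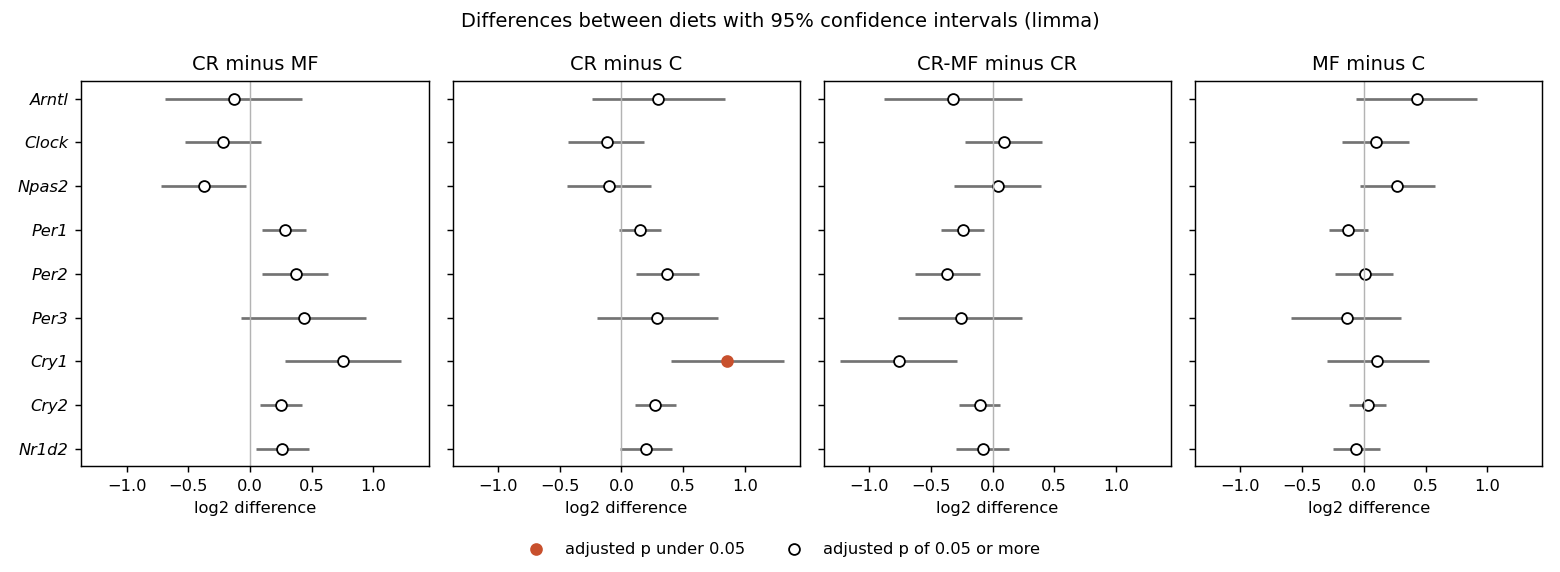
Log2 differences of the 9 members in 4 comparisons (horizontal axes, circles) with 95% confidence intervals from limma (lines), filled where the adjusted p was under 0.05. Only Cry1 in CR minus C (0.86) is filled, and Per1, Per2, Cry2 and Nr1d2 lie between 0.25 and 0.37 in CR minus MF.

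The other negative arm genes, Per1, Per2, Per3 and Cry2, had means that were highest in CR livers, by amounts that did not pass the adjusted test. PER1 and PER2 bind the CRY proteins and carry them into the nucleus. Per2 (10356601) was 8.51, 8.61, 8.72, 8.77 and 8.79 in the CR mice, and it spanned 7.86 to 8.53 in CR-MF, 7.86 to 8.69 in MF and 7.94 to 8.60 in C mice. Of the 7 CR-MF mice, 6 lay below every CR mouse, and 4 of 5 CR mice lay above every C mouse. The difference was 0.37 from MF (adjusted p = 0.0862), 0.37 from C (adjusted p = 0.0999) and 0.37 from the mean of the other diets (SE 0.11, adjusted p = 0.0543), and CR-MF minus CR was -0.37 (adjusted p = 0.198). On all 3 plates the Per2 mean of CR was above that of C and that of MF.

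Per1 (10377439) spanned 8.64 to 8.97 in CR mice, against 8.38 to 8.79 in CR-MF, 8.29 to 8.76 in MF and 8.50 to 8.81 in C mice. CR minus MF was 0.28 (SE 0.09, adjusted p = 0.056), with 4 of 5 CR mice above every MF mouse, and CR minus C was 0.15 (interval -0.02 to 0.32). Cry2 (10485170), the second cryptochrome, spanned 8.43 to 8.74 in CR mice, against 8.45 to 8.53 in CR-MF, 8.02 to 8.53 in MF and 8.16 to 8.67 in C mice. CR minus C was 0.27 for Cry2 (SE 0.08, adjusted p = 0.0685) and CR minus MF was 0.25 (SE 0.08, adjusted p = 0.0745). The SD of Cry2 over the 7 CR-MF mice was 0.03, the smallest of any member in any diet, and CR-MF minus C was 0.17 (adjusted p = 0.381). Per3 (10518781), a period gene that the loop can run without, varied more: it was 7.99, 8.36, 8.77, 8.96 and 9.13 in CR mice, 7.21 and then 8.44 to 8.68 in CR-MF mice, 7.62 to 8.45 in MF and 7.65 to 8.89 in C mice. Its groups overlapped, and CR minus MF was 0.44 (interval -0.07 to 0.94).

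The activators did not share the order of the repressors. Arntl (10556463) was 4.92, 5.32, 5.49, 6.82 and 6.97 in the CR mice, so that 3 CR mice lay below all MF mice and the other 2 above them. It spanned 5.32 to 5.96 in CR-MF, 5.64 to 6.39 in MF and 5.27 to 6.52 in C mice. Its SD was 0.93 in CR, against 0.30 in CR-MF, 0.29 in MF and 0.39 in C. CR minus MF was -0.13 (interval -0.69 to 0.42), and 0.11 without the CR mouse B4_5, and CR minus C was 0.30 (interval -0.24 to 0.84). MF minus C was 0.43 for Arntl (SE 0.24, adjusted p = 1), and CR-MF minus MF was -0.45 (SE 0.25, adjusted p = 0.406).

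Clock (10530733) was 8.22, 8.34, 8.76, 9.04 and 9.29 in the CR mice, a range wider than in CR-MF (8.59 to 8.98), MF (8.64 to 9.24) and C mice (8.59 to 9.23), and CR minus C was -0.12 (interval -0.43 to 0.18). Npas2 (10345675), which can stand in for CLOCK, was near the filter's log2 threshold of 4.32, at 4.28 to 4.70 in CR-MF, 4.27 to 4.66 in CR, 4.38 to 4.99 with 1 mouse at 5.86 in MF, and 4.33 to 4.99 in C mice. Its CR minus MF of -0.37 (adjusted p = 0.177) was -0.20 (adjusted p = 0.313) without the MF mouse at 5.86. Of the repressors of Arntl, Nr1d2 (10417734) spanned 9.50 to 10.11 in CR mice, against 9.51 to 9.82 in CR-MF, 9.18 to 9.77 in MF and 9.34 to 9.84 in C mice. CR minus MF was 0.26 for Nr1d2 (SE 0.11, adjusted p = 0.131), and 3 of 5 CR mice lay above every MF mouse.

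Some of these calls changed with the setting. After centring each array on its median, Cry1, Per1, Per2, Cry2 and Nr1d2 passed in CR minus MF. Their differences were 0.88, 0.40, 0.49, 0.37 and 0.39 (adjusted p of 0.011 to 0.0301), and the median of all genes itself moved by 0.125. Cry1 and Per1 also passed there with a filter at intensity above 100 (adjusted p of 0.0451 and 0.0454). With array weights or the animal number as a block, both passed too (adjusted p of 0.0275 to 0.0475). Without the CR mouse B4_5, Per1 passed in CR minus MF (0.32, adjusted p = 0.0341), and without the C mouse A4_1, Cry2 passed in CR minus C (0.32, adjusted p = 0.021).

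Over the 9 members, 6 had a positive log2 difference in CR minus MF and 7 in CR minus C, with medians of 0.26 and 0.27, beside medians of 0.01 and 0.02 over all genes tested. In MF minus C the median of the members was 0.03 and that of all genes 0.00. In CR-MF minus CR it was -0.24, beside -0.00 over all genes, with 7 of 9 members below 0. The members are parts of 1 loop and the comparisons share the CR mice, so these counts carry no test.

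Mice on the same diet differed from each other in a pattern that ran through several members. For each of the 36 pairs of measured members, the deviations of the 27 mice from their group means were correlated, with a two-sided permutation of mice within diets (100000 resamples) and adjustment over the pairs. There were 5 pairs with an adjusted p under 0.05, and 12 pairs with an unadjusted p under 0.05. Arntl deviated with its partner Clock (r = 0.68, permutation p = 0.00492, adjusted p = 0.0495, rho = 0.63, permutation p = 0.00403). Arntl deviated against Per3 (r = -0.62, permutation p = 0.00057, adjusted p = 0.0148, rho = -0.58, permutation p = 0.00405).

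Arntl also deviated against its repressor Nr1d2 (r = -0.59, permutation p = 0.00082, adjusted p = 0.0148, rho = -0.52, permutation p = 0.00776). Clock deviated against Per3 (r = -0.53, permutation p = 0.00688, adjusted p = 0.0495, rho = -0.61, permutation p = 0.00414). Per3 and Nr1d2 deviated together (r = 0.53, permutation p = 0.00591, adjusted p = 0.0495, rho = 0.48, permutation p = 0.0238). The pairs of Arntl with Cry1 (r = 0.59, adjusted p = 0.0973), of Per2 with Per3 (r = 0.51, adjusted p = 0.0655) and of Cry1 with Nr1d2 (r = -0.50, adjusted p = 0.0916) did not pass, and Per1 was in no pair that passed.

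**Figure D3:**
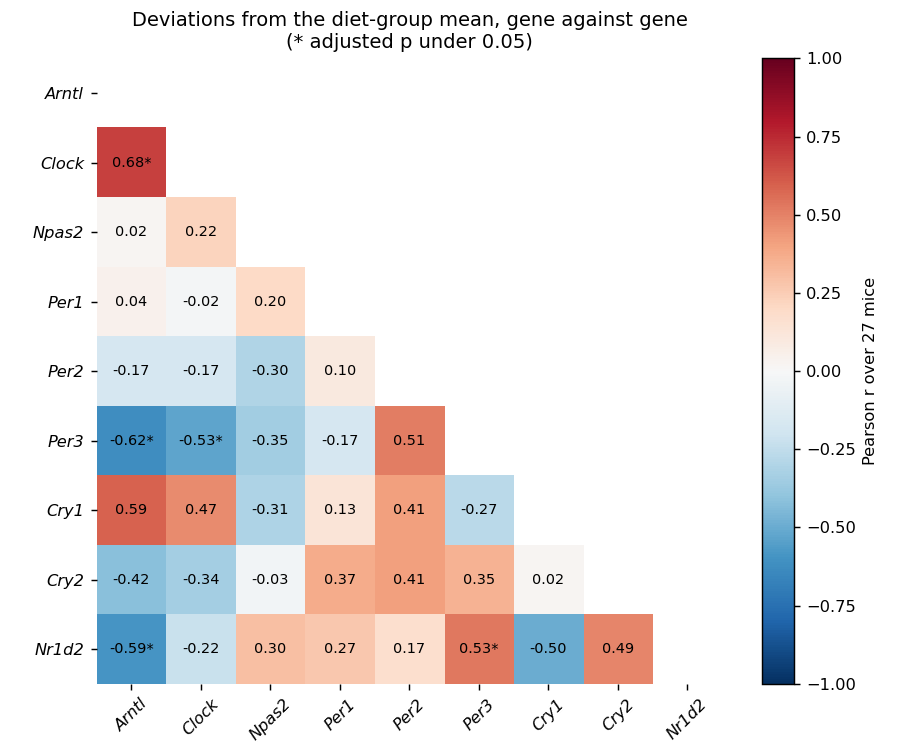
Pearson r of every pair of the 9 members over 27 mice, computed on log2 deviations from the diet-group mean, with blue for negative and red for positive values and a star for an adjusted p under 0.05. The 5 starred pairs join Arntl, Clock, Per3 and Nr1d2, from -0.62 (Arntl with Per3) to 0.68 (Arntl with Clock).

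Within single diets the relations were uneven. Clock with Per3 had r = 0.73 in the 7 CR-MF mice, the opposite sign to -0.61 in the 7 MF and -0.87 in the 8 C mice. Per3 with Nr1d2 had r = 0.86 in CR-MF, -0.44 in MF and 0.74 in C, and Arntl with Clock had r = -0.03 in CR-MF, 0.40 in MF and 0.73 in C. Arntl ran against Per3 (r = -0.48, -0.31 and -0.69 in CR-MF, MF and C) and against Nr1d2 (r = -0.68, -0.18 and -0.60) in each of these diets. In CR-MF, Per3 deviated by -1.17 in BC4_15 and by 0.06 to 0.3 in every other mouse. The CR-MF values of r with Per3, and their signs, thus rest largely on BC4_15. Without BC4_15, r of Clock with Per3 over the remaining mice of all diets was -0.81. Values within a diet are descriptions, with no test of their difference.

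A few mice carried much of this pattern. Leaving out the 2 mice farthest from the median on the first gene of a pair (B4_3 and A4_17 for Arntl) left r at 0.53 for Arntl with Clock, -0.48 with Per3 and -0.43 with Nr1d2. The same step left r at -0.44 for Clock with Per3 and 0.41 for Per3 with Nr1d2. Among the 19 mice of plate G150 the 5 values of r were 0.64, -0.61, -0.49, -0.41 and 0.47, and no pair passed there (adjusted p of 0.117 or more). Since Arntl was low in 3 CR mice and high in the other 2, the pairs were also taken over the 22 mice of the other 3 diets. There r was 0.48 for Arntl with Clock, -0.54 with Per3, -0.48 with Nr1d2, -0.37 for Clock with Per3 and 0.42 for Per3 with Nr1d2. None of the 36 pairs passed without the CR mice, so the relation was not established within the other diets. Counts also fell to 0 of 36 without any 1 of the mice B4_3, B4_5 or A4_17.

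**Figure D4:**
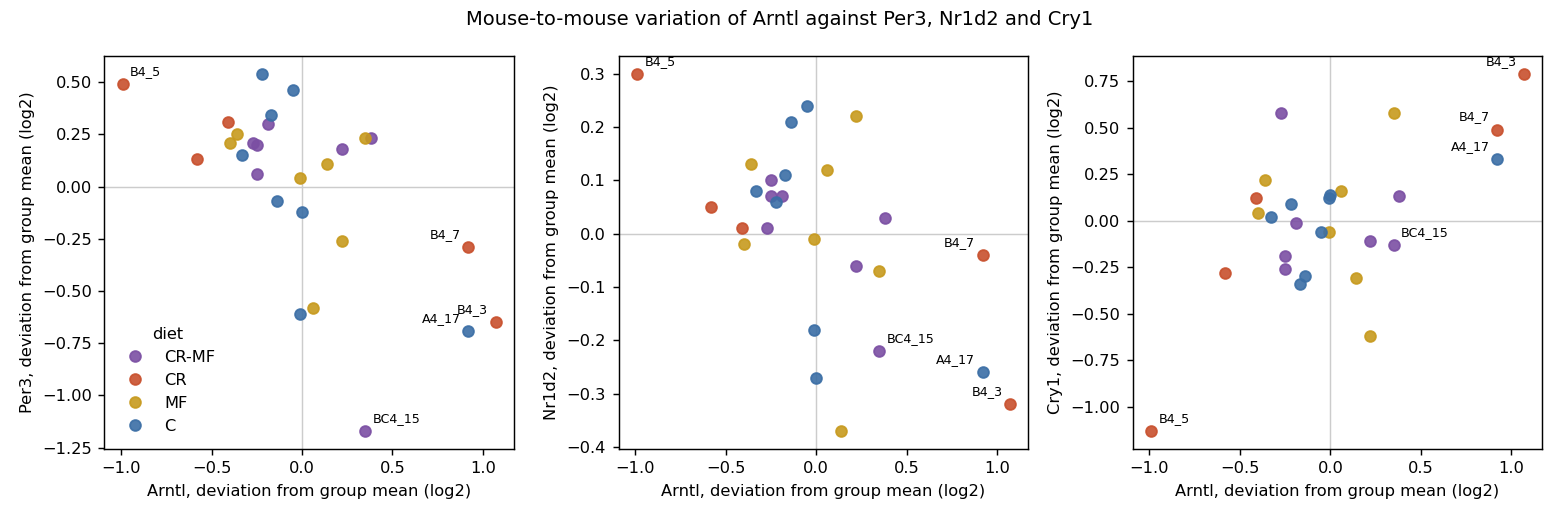
Deviation of each mouse from its diet-group mean, in log2 units, for Arntl on the horizontal axes against Per3, Nr1d2 and Cry1 on the vertical axes, coloured by diet with 5 mice named. The CR mouse B4_5 sits at the low end of Arntl (-0.99) with high Per3 and Nr1d2 and low Cry1, and the CR mouse B4_3 at the high end (1.07) with the opposite.

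The 2 extremes were both CR mice. B4_5 had the lowest Arntl (4.92) of the 27 mice, with the highest Per3 (9.13) and the highest Nr1d2 (10.11), and the lowest Cry1 of its diet (6.25). B4_3 had the highest Arntl (6.97), the highest Clock (9.29) and the highest Cry1 (8.17) of the 27 mice, with the lowest Per3 (7.99) and Nr1d2 (9.50) of its diet. B4_7 was next in Arntl (6.82) and Cry1 (7.87). The C mouse A4_17 had the third highest Arntl (6.52), with the highest Clock (9.23), the highest Cry1 (6.84) and the lowest Per3 (7.65) among the C mice. In contrast, Per1 and Per2 of the 5 CR mice lay within 0.33 and 0.28 log2 units of each other. When each of these mice died and last ate relative to the others was not tested.

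Both clusters listed under Nr1d1 and Thra were read as they are listed, since the genes overlap on opposite strands and which of them a cluster measured is not given in the sources used here. Cluster 10390691 averaged 9.55 ± 0.50 in CR-MF, 9.36 ± 0.60 in CR, 9.49 ± 0.39 in MF and 9.64 ± 0.39 in C livers, with all groups overlapping. It was lowest in the CR mouse B4_7 (8.47), the CR-MF mouse BC4_15 (8.58) and the C mouse A4_17 (8.93), and highest in the C mouse A4_1 (10.15), the MF mouse C4_9 (10.11) and the CR mouse B4_5 (10.09). Its deviations ran against those of Arntl (r = -0.69, permutation p = 0.00015, adjusted p = 0.00072, rho = -0.58, and r = -0.69 without the 2 farthest mice) and with those of Nr1d2 (r = 0.67, permutation p = 0.00037, adjusted p = 0.00074, rho = 0.73). Cluster 10381006 averaged 7.79 ± 0.22 in CR-MF, 7.76 ± 0.23 in CR, 7.75 ± 0.13 in MF and 7.85 ± 0.17 in C livers, and it deviated with Per3 (r = 0.72, permutation p = 0.00024, adjusted p = 0.00072, rho = 0.65) but not measurably with Nr1d2 (r = 0.20, permutation p = 0.329, rho = 0.09). Without the 2 farthest mice, r of cluster 10381006 with Per3 was 0.59. Cluster 10381006 also ran against Arntl (r = -0.48, permutation p = 0.022, adjusted p = 0.0264, rho = -0.45). Cluster 10390691 ran with Per3 (r = 0.56, permutation p = 0.00783, adjusted p = 0.0117, rho = 0.41), but r was 0.31 without the 2 farthest mice. The p-values were adjusted over the 6 pairs of these clusters with Arntl, Per3 and Nr1d2. Arntl, Per3 and Nr1d2 are genes of the member pairs called above in the same mice, so these values are not separate pieces of evidence. The cluster pairs were not taken on plate G150 alone, without the CR mice or leaving out each mouse.

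By their deviations from the diet-group means over the 27 mice, the genes most like Arntl among 13505 others, leaving out predicted models, were Fam222a (r = 0.82), Csnk1d (0.77), Slc45a3 (0.76), Ccng2 (0.76) and Capn15 (0.74). Csnk1d encodes casein kinase 1 delta, which phosphorylates the PER proteins. The genes that ran most against Arntl were Spata25 (r = -0.81), Gpr146 (-0.81), Nmnat3 (-0.79), Nr3c2 (-0.78), which encodes the mineralocorticoid receptor, and C77080 (-0.75). For Cry1, added after its values were seen, the most alike were Ahctf1 (r = 0.87), Slain2 (0.83), Atp11b (0.81), Asl (0.76) and Ivns1abp (0.76), and the least alike Cdt1 (r = -0.75), Tab1 (-0.72), Ttll12 (-0.71), Mlkl (-0.71) and Jpt2 (-0.71). These are the extremes of many values over shared arrays and carry no test.

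Of the ROR receptors, 1 was tested. Rora, the ROR receptor that activates Arntl, was 9.26 to 9.64 in CR mice, against 8.96 to 9.47 in CR-MF, 8.79 to 9.15 in MF and 8.84 to 9.08 in C mice. All 5 CR mice thus lay above every MF and every C mouse, and the difference was 0.41 from MF (adjusted p = 0.00895) and 0.49 from C (adjusted p = 0.0055). CR-MF minus CR was -0.27 for Rora (adjusted p = 0.163). Rorb did not pass the filter.

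Of the 3 tested transcription factors that carry the clock to its outputs through the D-box (Tef, Hlf and their competitor Nfil3), none was called in any comparison. The one with the smallest p was Tef, with a CR minus MF of 0.27 (adjusted p = 0.2). Of 17 tested genes that modify the clock (kinases, ubiquitin ligases, cofactors and the bHLH repressors), none was called either, and the smallest p belonged to Fbxw11, a ubiquitin ligase subunit, in CR-MF minus MF (-0.18, adjusted p = 0.0902). Dbp and Ncor1 were not analysed here.

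Of 13 tested liver genes with a daily rhythm, 3 passed in CR minus MF, all higher in CR, where 5.42% of all genes passed. Noct (nocturnin), whose RNA has a strong daily rhythm in mouse liver, was 8.44 to 9.28 in CR mice, against 7.39 to 8.65 in CR-MF, 7.60 to 8.27 in MF and 7.73 to 8.28 in C mice. Its difference was 0.73 from MF (adjusted p = 0.014), 0.72 from C (adjusted p = 0.0275) and -0.94 for CR-MF minus CR (adjusted p = 0.0098). Coq10b, a coenzyme Q binding protein, was higher in CR than in MF by 0.69 (adjusted p = 0.00403) and than in C by 0.54 (adjusted p = 0.0276). Upp2, a uridine phosphorylase, was higher in CR than in MF by 0.82 (adjusted p = 0.0263) and also higher in CR-MF than in MF, by 0.88 (adjusted p = 0.0195). The median of the 13 genes was 0.21 in CR minus MF, beside 0.01 over all genes.

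Some genes that follow feeding, fasting or glucocorticoids passed in CR minus MF, where 5.42% of all genes did. Of 7 tested genes of the fed state, 2 were higher in CR than in MF, the fatty acid synthesis genes Acaca (0.66, adjusted p = 0.0368) and Fasn (1.11, adjusted p = 0.0284). Of 9 tested genes of the fasted state, 3 were higher in CR than in MF: Ppargc1a, a coactivator of gluconeogenesis, by 1.04 (adjusted p = 0.00236), the insulin receptor substrate Irs2 by 0.81 (adjusted p = 0.0131), and Pck1, which encodes an enzyme of glucose production, by 0.40 (adjusted p = 0.0182). The glucocorticoid induced gene Tat, a tyrosine aminotransferase, was higher in CR than in MF by 0.46 (adjusted p = 0.015), 1 of 6 tested. The other 5 genes of the fed list, 6 of the fasted list and 5 of the glucocorticoid list did not pass there. In CR minus C, Ppargc1a alone of these 3 lists was called (0.97, adjusted p = 0.0091), with 1.57% of all genes. CR-MF minus CR was -1.05 for Ppargc1a (adjusted p = 0.0098) and -0.82 for Acaca (adjusted p = 0.0342). Fgf21, a fasting hormone of the liver, was lower in CR-MF than in MF (-0.73, adjusted p = 0.0197) and than in C (-0.70, adjusted p = 0.0475). None of 7 tested genes that respond to temperature was called, with Hspa8 the one of smallest p among the comparisons that hold CR (CR minus C -0.16, adjusted p = 0.211). Their part in the Cry1 difference was not tested.

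Arrays correlated at 0.975 to 0.991 with each other and had medians of 5.38 to 5.48, and the 7 hepatocyte markers measured were above 20 on every array, with a summed intensity of 53600 to 59500 in CR-MF, 53500 to 61600 in CR, 52400 to 55300 in MF and 53100 to 55700 in C mice. A few markers of other cells differed between diets. Of 6 recruited macrophage markers, 2 (Trem2 and Ccr2) were lower in CR than in C (1.57% of all genes called), 3 (Gpnmb, Trem2 and Ccr2) lower in CR than in MF (5.42%) and 1 (Cd9) lower in CR-MF than in MF (1.44%). That list summed to 643 to 2620 in CR-MF, 697 to 828 in CR, 886 to 2840 in MF and 930 to 2780 in C mice, with all 6 above 20 on every array. Of 6 tested T and NK cell markers, Themis alone was lower in CR than in C, in CR than in MF and in CR-MF than in MF, and the list of 7 summed to 305 to 1440 in CR-MF, 277 to 354 in CR, 317 to 1350 in MF and 270 to 906 in C mice. None of the tested B and plasma cell (4), Kupffer cell (6), endothelial (6) and adipocyte (3) markers was called in any comparison, while Epcam (1 of 4 cholangiocyte markers) was lower in CR-MF than in MF, and Pdgfrb (1 of 6 stellate cell markers) was lower and Cps1 (1 of 4 hepatocyte markers) higher in CR than in MF. The part of these cells in the clock gene levels was not tested.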

How the data were processed

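Liver RNA of 27 mice was hybridised by the authors to Affymetrix Mouse Gene 1.1 ST arrays, and each deposited value is a log2 intensity of 1 transcript cluster after background correction, normalization and summary by Robust Multiarray Average (RMA). The version and genome build are not given in the sources used here. Precision is limited by how many arrays there are. Of the clusters, 21218 had 1 symbol, 1881 several and 12457 none listed in the platform annotation, and only those with 1 symbol were named. Both Nr1d1 clusters also carry Thra, so Nr1d1 had no value of its own, and likeness was taken for Arntl and, added later, Cry1.

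The 13993 genes that passed the filter (brighter than 20 on 5 or more arrays, interquartile range over 0.1) were tested in 1 fit of the 4 diets to the 27 arrays, with limma 3.58.1 in R 4.3.3 (eBayes with trend, 23 residual degrees of freedom). On simulated data, 73% of genes changed by 0.5 and 99% changed by 1 in CR were recovered in CR minus the mean of the other diets, of 100 each among 13993 genes, with 5 false calls. Members, lists and comparisons were chosen with earlier results of these data known. Named genes are the members, of each other list the called genes (up to 4) or the 1 with the smallest p, and the 5 most and least alike genes. Pairs number 36, since 9 members were measured (Python 3.11.15, numpy 2.4.6). Plates and well rows were read from codes in the array names, which is inferred. Promoters are from RefSeq. Alternatives were other normalizations, filters and variance models, array weights, plate, well row and animal number as blocks, and leaving out each mouse.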

Additional observations from a re-analysis of the deposited data

Results flagged for a closer look

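Of 36 sets of values (9 members in 4 diets), 4 held a mouse that stood apart from the rest of its diet by Dixon's test, a test that flags about 1 in 20 groups by chance. Arntl in C was highest in A4_17, at 6.52, with the next C mouse at 5.60. Npas2 in MF was highest in C4_9, at 5.86, with the next at 4.99. Per3 in CR-MF was lowest in BC4_15, at 7.21, with the next at 8.44. Cry2 in C was highest in A4_1, at 8.67, with the next at 8.39. None of the 4 was a Cry1 value, and the 5 CR mice held none. The test looks at a single end value of a group. It thus does not address the split of Arntl in the CR mice or the wide spread of their Cry1.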

How the results depend on the processing

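None of the 19 member differences with an unadjusted p under 0.05 reversed its direction under the alternatives run. Differences on plate G151 or G152 alone, with 1 mouse a diet, were not among these alternatives. Of all 63 member differences, 16 changed sign when some 1 mouse was left out, Arntl in CR minus MF among them, each with an unadjusted p above 0.05. The count of called members was 1 in CR minus C and 1 in CR minus the mean of the other diets. Median centring, which moved the median of all genes by 0.125 in CR minus MF and 0.096 in CR minus C, gave 5 members in CR minus MF, 3 in CR minus C, 4 in CR minus the mean of the other diets and 3 in the F test. Array weights gave 1 in CR-MF minus CR, 2 in CR minus MF, 3 in CR minus C, 3 in CR minus the mean and 2 in the F test. The stricter filter (intensity above 100) gave 2 in CR minus MF and 2 in CR minus the mean, and quantile normalization 1 in CR minus MF. No member was called in CR minus C with no filter, with the plate or, chosen after seeing the data, the well row as a block, on plate G150 alone or in a fit on the 2 groups only, and none in CR minus the mean on G150 alone. With the animal number as a replicate block, 2 members were called in CR minus MF, against 0, and it changed no other count of members. Over all genes, the within-diet deviations of same-numbered mice correlated weakly (median r of 0.0942 over 27 pairs, -0.255 to 0.357, 13 above 0.1). The median was -0.0235 over 244 pairs of mice that differed in number and diet, and the block correlation was 0.077. Leaving out each mouse gave 0 to 1 members in CR-MF minus CR, 0 to 2 in CR minus MF, 0 to 2 in CR minus C, 0 to 3 in CR minus the mean and 0 to 1 in the F test. Of the pairs of members, 5 were called, with 9 after median centring, 0 on plate G150 alone (deviations from diet and plate give the same values, since the other plates hold 1 mouse a diet), 0 without the CR mice (chosen after seeing the data) and 0 to 8 when leaving out each mouse. The calls gained were of Cry1, Per1, Per2, Cry2 and Nr1d2. The cause of these changes was not tested. Over all genes, counts ranged from 8 to 209 in CR-MF minus CR (84 in the report's fit), up to 515 in CR-MF minus MF (202), 30 to 290 in CR-MF minus C (42), 67 to 1814 in CR minus MF (758), 33 to 1077 in CR minus C (220) and 42 to 1085 in CR minus the mean (487). The well row could not be fitted for CR-MF, which fills a row alone. All 8 C mice lay in row F with 3 CR mice, and all 7 MF mice in row G with 2 CR mice. Diet and well row can thus hardly be told apart, and a fit with the row as a block joins MF to C only through CR mice. In that limma fit, Cry1 in CR minus C was 0.69 (adjusted p = 0.225). The self-test recovered 60% of changes of 0.5 in CR minus C, so differences of the size seen in Per1, Per2 and Cry2 could be missed here.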
